A study of Homo sapiens with 6 samples.

Results

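Oxidative phosphorylation is carried out in the inner mitochondrial membrane by 5 protein complexes, and this is an account of the nuclear genes for their subunits after SDC1 (syndecan-1) was silenced. The genes were chosen by symbol: NDUFA, NDUFB, NDUFC, NDUFS and NDUFV genes with a number, SDHA to SDHD, and symbols that begin with UQCR, COX4 to COX8 or ATP5. A gene needed a probe set (a group of short probes for a transcript) that the array annotation ties to that gene alone, and 2 pseudogenes were left out. The rule found 76 genes among 19775 tested, read by 150 probe sets: 32 of complex I, 3 of complex II, 6 of complex III, 17 of complex IV and 18 of complex V. ATP5IF1, which the rule also takes, encodes an inhibitor of complex V and no subunit, and COX7A2L encodes a factor that joins complexes III and IV. Genes read only by probe sets tied to several genes, or by none, were not analysed here.

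The samples were 6 cultures of MDA-MB-231, a widely used triple-negative breast cancer cell line with mesenchymal traits. In 3 cultures the cells received a small interfering RNA (siRNA) that targets SDC1, and in 3 with a negative control siRNA. Total RNA was labelled with biotin as cRNA and hybridised to Affymetrix arrays, 1 per culture, and the design text calls the replicates independent without saying what separated them, so p-values measure the spread between these cultures only. Nothing read here states the siRNA sequences, how many were used or the time after transfection, and no untransfected cells were analysed here. Arrays compare RNA pools, so fewer cells of a kind and less RNA per cell cannot be told apart.

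Complexes I and II take electrons from NADH and succinate, complex III passes them to cytochrome c, and complex IV hands them to oxygen. The proton gradient that complexes I, III and IV build drives complex V, the ATP synthase. Most subunits are nuclear genes and a few are encoded in mitochondrial DNA, so the assembly of complexes I, III, IV and V draws on both genomes. Nuclear respiratory factor NRF1, the ETS factor GABP and YY1 are known to bind promoters of nuclear subunit genes, and coactivators such as PPARGC1A act through such factors.

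Each deposited value is on the log2 scale and centred, so that 0 is the middle of a probe set's 6 readings. Such values show differences between arrays but no level, so subunits cannot be ranked by abundance. The median lies between the third and the fourth array in order, and those arrays therefore often hold mirrored values such as -0.59 and 0.59. A coarse brightness class (log2 level between 2 and 4, 4 and 8, or 8 and 16), read from the numeric step of the values, placed 67 of the 76 genes in the brightest class, 7 in the middle and 2 in the dimmest. Of the markers of this line, VIM, CD44, AXL, EGFR and CAV1 were in the brightest class and SPARC in the dimmest, and of the luminal or epithelial genes ESR1, ERBB2 and EPCAM were in the brightest class and PGR and FOXA1 in the middle. Since the values hold no level or detection call, the class does not show whether a marker was absent. The targeted gene was lower in every SDC1 siRNA array, at -1.14, -1.16 and -1.43 against 1.13, 1.32 and 1.09, which left 18.7% of the control transcript (limma adjusted p = 2.06e-06). Poly-A spike-in controls split the arrays into 2 sets that each hold both groups. Control replicate 1 and SDC1 siRNA replicates 1 and 2 had spike-in means between 0.39 and 0.68, and the other 3 arrays means between -0.47 and -0.43. Differences within these sets are given beside the pooled ones. The labels name no batch.

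Summarised per gene, the subunit genes moved little as a body, with NDUFA5 and NDUFV3 of complex I as the exceptions in size. Differences are log2 values after SDC1 siRNA minus those after control siRNA, each with its standard error (SE) from limma, n = 3 arrays per group, and a gene passed the test at a Benjamini-Hochberg adjusted p under 0.05 over all genes. Of the 76 genes 18 passed (23.7%), against 28.2% of all genes and 41.4% of all genes in the brightest class. Of these 13 were higher and 5 lower, which is 17.1% and 6.58% of the 76. Over all genes 13% were higher and 15.1% lower, and in the brightest class 18.1% were higher and 23.3% lower. The share of subunit genes that passed was thus no larger than the share among all genes. The median difference of the 76 was 0.062 (0.046 and 0.061 within the 2 spike-in sets), against 0.0045 for all genes. The median size of a difference, whatever its sign, was 0.11, against 0.13 for all genes and 0.18 in the brightest class. At 1.5-fold or more 2 subunit genes passed, and at 2-fold or more 1. For 34 of the 76 genes every SDC1 siRNA array lay on one side of every control array (24 above and 10 below the controls), against 41.8% of all genes and 57.7% of the brightest class. All 18 genes that passed were among them and kept their sign in both spike-in sets. This holds for nearly any gene that passed: over all genes 5548 of 5568 had groups apart and all 5568 kept their sign. It is therefore no added support for the 18. The counts are sensitive to single arrays: without SDC1 siRNA replicate 2, 6 genes were higher and 4 lower. The share of all genes that passed then also fell, from 28.2% to 22.7%.

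**Figure D1:**
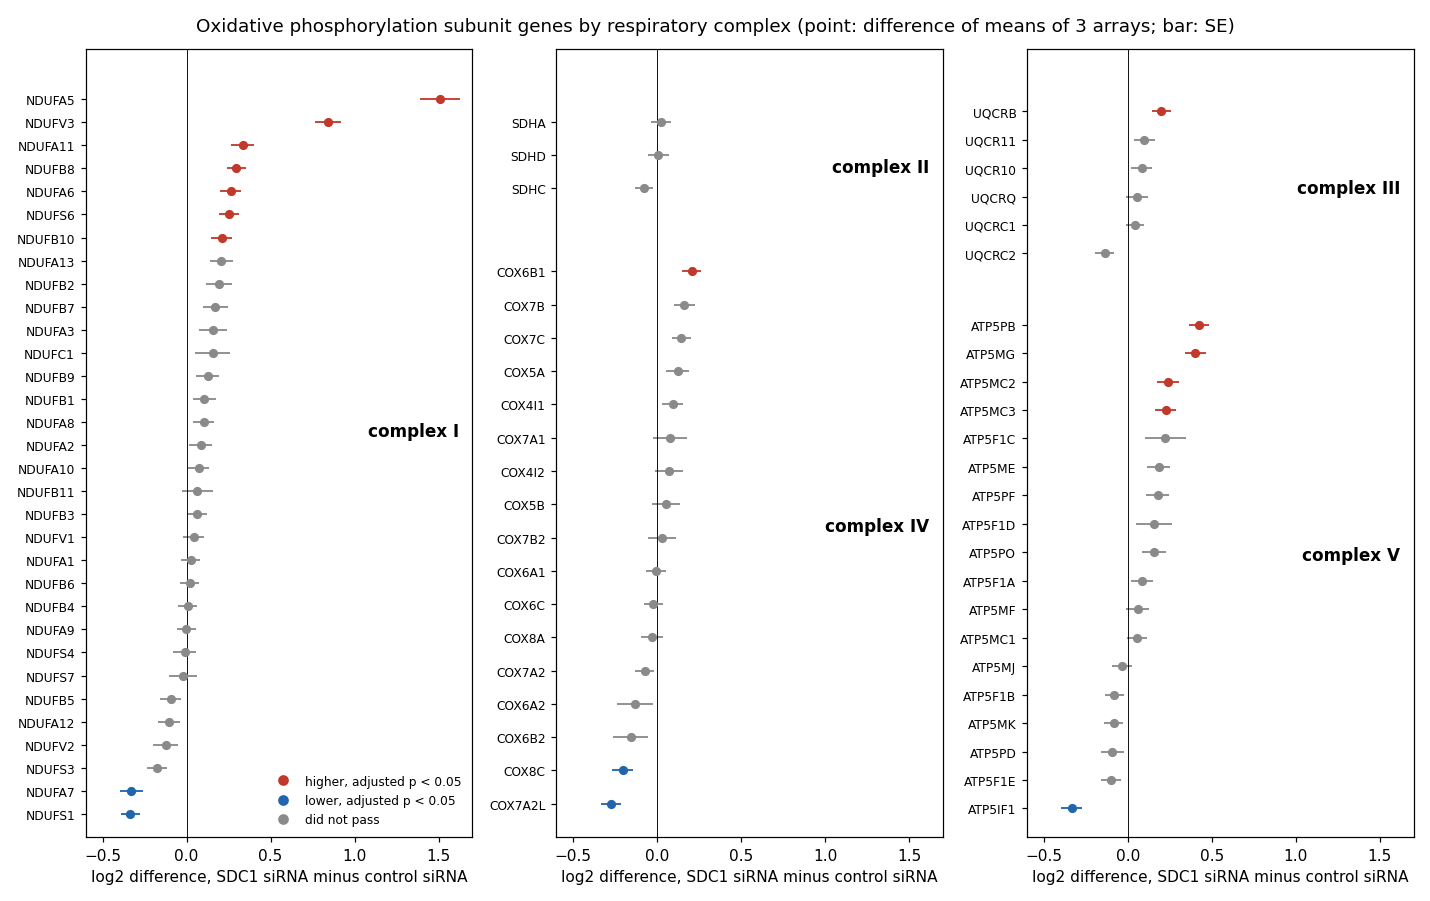
Log2 difference (SDC1 siRNA minus control siRNA, horizontal axis) of each of the 76 genes, by complex, with bars for the SE of the fit from 3 arrays per group. Red points were higher and blue points lower at an adjusted p under 0.05, grey points did not pass. NDUFA5 (1.51) and NDUFV3 (0.84) lie apart from the other genes, which range from -0.33 to 0.42.

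Promoter sequences are shown for the 2 genes that rose most, for genes that passed and hold an NRF1 or GABP motif just upstream of the start, and for ATP5F1C, whose probe sets disagree. Each is the 200 bases before the annotated start (the first start listed), 5′ to 3′, from RefSeq on GRCh38.p14. Capitals mark matches, on either strand, to the palindrome of GCGC, any 2 bases and GCGC (NRF1), CCGGAAG (GABP) or CCAAT (the CCAAT box bound by NFY).
NDUFA5, chr7:123601652-123601851, minus strand: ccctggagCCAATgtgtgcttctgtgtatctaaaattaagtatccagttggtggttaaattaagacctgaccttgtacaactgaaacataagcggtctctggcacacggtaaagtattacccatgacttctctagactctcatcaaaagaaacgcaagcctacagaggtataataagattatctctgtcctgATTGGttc
NDUFV3, chr21:42893109-42893308, plus strand: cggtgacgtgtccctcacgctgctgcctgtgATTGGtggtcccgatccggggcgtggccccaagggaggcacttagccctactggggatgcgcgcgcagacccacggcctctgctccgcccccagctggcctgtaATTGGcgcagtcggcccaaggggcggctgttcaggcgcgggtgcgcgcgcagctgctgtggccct
NDUFA11, chr19:5903791-5903990, minus strand: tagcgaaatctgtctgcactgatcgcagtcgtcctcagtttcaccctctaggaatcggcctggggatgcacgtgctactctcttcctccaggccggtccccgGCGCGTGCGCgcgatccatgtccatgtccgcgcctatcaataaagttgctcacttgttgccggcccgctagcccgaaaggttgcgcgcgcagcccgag
NDUFB10, chr16:1959338-1959537, plus strand: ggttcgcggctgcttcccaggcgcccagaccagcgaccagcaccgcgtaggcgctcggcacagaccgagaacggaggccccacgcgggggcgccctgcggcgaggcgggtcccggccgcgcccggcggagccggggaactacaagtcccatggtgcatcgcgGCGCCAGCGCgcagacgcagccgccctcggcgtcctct
COX6B1, chr19:35648123-35648322, plus strand: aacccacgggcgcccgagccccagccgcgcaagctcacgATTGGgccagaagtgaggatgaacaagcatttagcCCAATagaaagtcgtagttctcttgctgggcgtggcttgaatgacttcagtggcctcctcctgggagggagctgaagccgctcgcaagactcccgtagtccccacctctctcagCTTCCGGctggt
COX8C, chr14:93346982-93347181, plus strand: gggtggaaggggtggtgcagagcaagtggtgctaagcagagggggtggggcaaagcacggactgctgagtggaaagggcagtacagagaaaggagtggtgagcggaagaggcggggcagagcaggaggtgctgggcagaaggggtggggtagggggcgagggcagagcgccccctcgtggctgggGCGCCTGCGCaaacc
NDUFS1, chr2:206159445-206159644, minus strand: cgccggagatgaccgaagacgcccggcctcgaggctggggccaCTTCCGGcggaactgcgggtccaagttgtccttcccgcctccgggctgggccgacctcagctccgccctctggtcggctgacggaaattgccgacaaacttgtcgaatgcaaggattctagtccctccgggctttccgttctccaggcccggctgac
ATP5F1C, chr10:7787977-7788176, plus strand: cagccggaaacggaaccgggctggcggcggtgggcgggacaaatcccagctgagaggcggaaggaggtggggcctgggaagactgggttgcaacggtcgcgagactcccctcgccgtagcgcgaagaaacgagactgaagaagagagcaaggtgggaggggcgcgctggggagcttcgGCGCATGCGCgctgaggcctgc

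The windows shown for NDUFA5 and NDUFV3 hold CCAAT boxes and no match to the NRF1 or GABP motif. Those of NDUFA11, NDUFB10, COX8C and ATP5F1C hold the NRF1 motif, and those of COX6B1 and NDUFS1 the GABP motif. NDUFA5 has 3 listed windows and NDUFS1 has 2, and only the first of each was read. Motifs at their other starts are therefore not covered. RefSeq windows of 300 bases (250 before and 50 after the start) were found for 65 of the 76 genes. The NRF1 motif was in 17 of the 65 windows (26.2%) and in 8.78% of 27305 windows of all genes. The GABP motif was in 18 (27.7%, against 10.7%) and AAGATGGCG, a YY1 motif, in 7 (10.8%, against 1.85%). CCAAT was as frequent as elsewhere, in 23 windows (35.4%, against 35.7%). Among the 17 genes with the NRF1 motif 2 were higher and 1 lower, among the 18 with the GABP motif 2 were higher and 1 lower, and among the 7 with the YY1 motif 1 was higher and 1 lower. Over all genes 13% were higher and 15.1% lower, and these small sets were not tested against those shares. The median difference was 0.081, 0.053 and -0.00060 in the NRF1, GABP and YY1 sets. A match describes letters in a window and does not show a bound site.

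Complex I, the NADH dehydrogenase, had 7 genes higher and 2 lower of 32 (28.1%, against 28.2% of all genes and 41.4% of the brightest class). Its median was 0.079 (0.054 and 0.067 within the spike-in sets). NDUFA5, an accessory subunit of the matrix arm next to the iron-sulfur clusters that pass electrons to ubiquinone, was at 0.70, 0.59 and 0.97 in the SDC1 siRNA arrays and at -0.59, -0.94 and -0.74 in the control arrays. The groups lay far apart, and the difference was 1.51 (SE 0.12, limma adjusted p = 4.4e-05), a 2.85-fold rise (1.23 and 1.81 within the spike-in sets). Its other probe set, in the dimmest class, gave 0.056 (SE 0.11, adjusted p = 0.798 over all probe sets by limma), and the average of both gave 0.78.

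NDUFV3 encodes a small accessory subunit of the flavoprotein part, where NADH is oxidised, and is made in a short and a long form. Its bright probe set was at 0.33, 0.48 and 0.51 after SDC1 siRNA and at -0.33, -0.36 and -0.51 after control siRNA. That is a rise of 0.84 (SE 0.077, limma adjusted p = 9.33e-05), or 1.79-fold, with 0.74 and 0.95 within the spike-in sets. Its dimmer probe set gave the opposite sign with groups apart, at -0.10, -0.11 and -0.13 against 0.20, 0.10 and 0.29, a fall of 0.31 (SE 0.075, adjusted p = 0.0189 over all probe sets by limma). Among the genes with several probe sets NDUFV3 was the only one with probe sets that passed in opposite directions, and the average of both was 0.27 (limma adjusted p = 0.00789). Which transcript form each probe set reads was not analysed here.

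The other rises in complex I were smaller. NDUFA11, of the membrane arm, rose by 0.33 (SE 0.069), NDUFB8 by 0.30 (SE 0.056), NDUFA6 by 0.26 (SE 0.062), NDUFS6 by 0.25 (SE 0.059) and NDUFB10 by 0.21 (SE 0.061). NDUFB8 was at 0.10, 0.18 and 0.13 after SDC1 siRNA and at -0.15, -0.15 and -0.17 after control siRNA. The groups of NDUFB8 arrays were thus narrow and apart. NDUFA6, a matrix-arm protein that binds the acyl carrier protein, and NDUFS6, which carries zinc near the NADH-binding end, lost the call without SDC1 siRNA replicate 2. NDUFB10 kept its call in only 1 of the 6 fits that leave out an array.

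NDUFS1 and NDUFA7 were the complex I genes that fell. NDUFS1, the largest subunit and the carrier of several iron-sulfur clusters, was at -0.15 in all 3 SDC1 siRNA arrays and at 0.22, 0.19 and 0.14 in the controls, a fall of 0.33 (SE 0.056, limma adjusted p = 0.00245). The fall rests on 1 of its probe sets, at -0.57, while its other bright probe set gave -0.10 (adjusted p = 0.34 over all probe sets by limma). With all its probe sets averaged NDUFS1 was at -0.11 (limma adjusted p = 0.212). NDUFA7, a matrix-arm accessory subunit, fell by 0.33 (SE 0.070, limma adjusted p = 0.00799), and its 2 probe sets agreed, both at -0.33.

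The genes of complex I are also given by arm, in a grouping made with the values known and with no test between the arms. Over all 19775 genes, 10074 had a difference above 0 and 28.2% passed (41.4% in the brightest class). In the membrane arm, which pumps protons, 17 of 18 genes had a difference above 0 and 3 passed, all higher, with a median of 0.12. In the matrix arm, which carries the electrons, 6 of 14 were above 0, 4 passed higher and 2 lower, and the median was -0.0059. The 2 largest rises and both falls were in the matrix arm. Among core subunits NDUFV1 was at 0.042 (SE 0.061, limma adjusted p = 0.673), NDUFV2 at -0.12 (SE 0.075), NDUFS7 at -0.022 (SE 0.081), and NDUFS3 at -0.18 (SE 0.058, limma adjusted p = 0.0541), just short of the threshold. NDUFS3 passed in 5 of the 15 alternative fits.

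**Figure D2:**
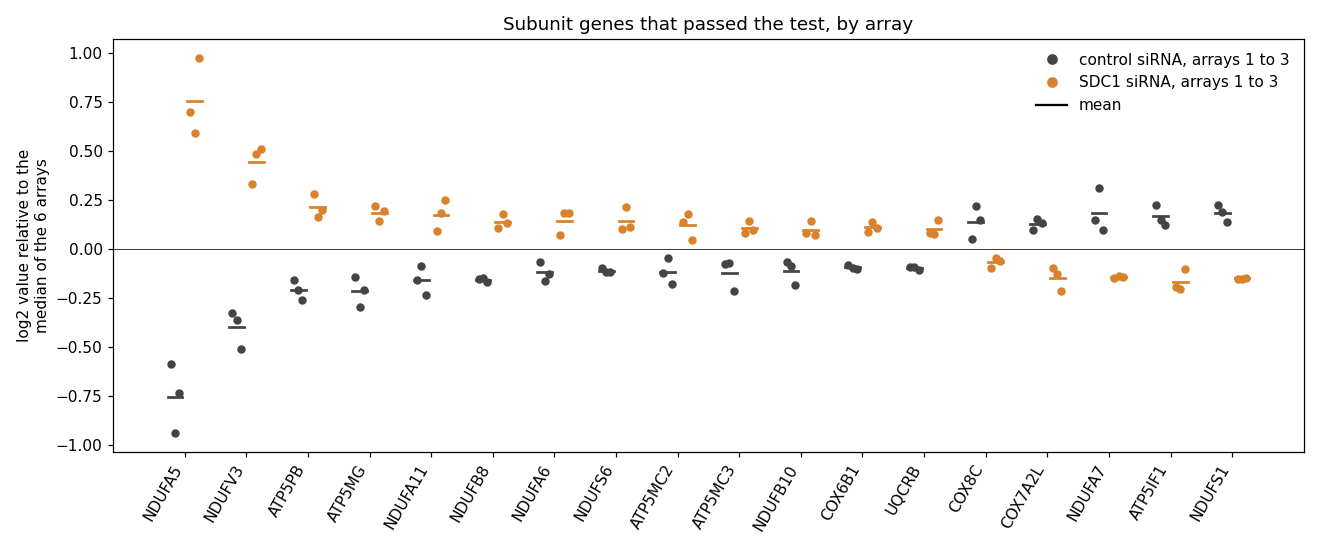
Log2 value relative to the median of the 6 arrays (vertical axis) for the 18 genes that passed, with 1 point per array, grey for control siRNA and orange for SDC1 siRNA, and lines for the means of 3 arrays. The groups do not overlap for any of the 18. NDUFA5 and NDUFV3 have the widest gaps, and the others stay within about 0.31 of the median.

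None of the 3 measured genes of complex II, succinate dehydrogenase, passed the test. Over all genes 28.2% passed, and 3 genes are too few to set against that share. SDHA, the flavoprotein that oxidises succinate, was at 0.020 (95% confidence interval -0.12 to 0.16, limma adjusted p = 0.849), and its groups of arrays overlapped. It is read by only 1 probe set, of the kind that can cross-hybridise with other transcripts. SDHD, a membrane anchor, was at 0.0068 (95% confidence interval -0.13 to 0.15), and SDHC, the other anchor, at -0.079 (95% confidence interval -0.20 to 0.045). A change of 2-fold lies outside all 3 intervals, which bound only these gene values as summarised. None of the 3 had an unadjusted limma p under 0.05. SDHC has 7 probe sets, and 2 of the middle class that do not enter its gene value fell by 0.73 (SE 0.077) and 0.65 (SE 0.080), with adjusted p of 0.000297 and 0.000662 over all probe sets by limma. The other 5 lay between -0.15 and 0.015. The average over its probe sets without those that can cross-hybridise passed as lower.

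In complex III, the cytochrome bc1 complex, 1 of 6 genes was higher and none lower (16.7%, against 28.2% of all genes). The median was 0.067 (0.046 and 0.11 within the spike-in sets). UQCRB, a subunit near the quinone-binding site, was at 0.079, 0.077 and 0.15 after SDC1 siRNA and at -0.092, -0.095 and -0.11 after control siRNA, a difference of 0.20 (SE 0.056, limma adjusted p = 0.0284). The groups did not overlap. The call was lost in each of the 6 fits that leave out an array and with cross-hybridising probe sets kept. The bright probe sets of UQCRB were at 0.33 and 0.065 (adjusted p of 0.00815 and 0.598 over all probe sets by limma). Outside its gene value, a probe set of the middle class was at 0.65 (adjusted p = 0.000858 over all probe sets by limma). A cross-hybridising probe set was at 0.048. The core proteins UQCRC1 and UQCRC2 were at 0.042 (SE 0.055) and -0.14 (SE 0.056, limma adjusted p = 0.11). UQCR11 was at 0.098 (SE 0.065) as the mean of bright probe sets at 0.40 (adjusted p = 0.0063 over all probe sets by limma) and -0.20 (adjusted p = 0.104).

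Complex IV, cytochrome c oxidase, had 1 gene higher and 2 lower of 17 (17.65%, against 28.2% of all genes). Its median of 0.027 differed in sign between the spike-in sets (0.084 and -0.058). COX7A2L, which helps to join complexes III and IV into supercomplexes, was at -0.097, -0.13 and -0.22 after SDC1 siRNA and at 0.097, 0.15 and 0.13 after control siRNA. It fell by 0.28 (SE 0.060, limma adjusted p = 0.00888). COX6B1, which faces the space where cytochrome c docks, rose by 0.20 (SE 0.055, limma adjusted p = 0.023), from controls at -0.085, -0.096 and -0.11 to 0.085, 0.14 and 0.11, a call kept in 1 of the 6 fits that leave out an array. The other ubiquitous subunits, from COX4I1 (0.092) to COX8A (-0.033), lay between -0.076 and 0.16 and did not pass.

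Isoforms restricted to certain tissues were not in the brightest class. COX8C, a testis form, was at -0.100, -0.048 and -0.062 after SDC1 siRNA and at 0.048, 0.22 and 0.15 after control siRNA. It fell by 0.21 (SE 0.064, limma adjusted p = 0.0431), a call also kept in 1 of the 6 fits that leave out an array. The heart and muscle forms COX6A2 and COX7A1 were at -0.13 (SE 0.11) and 0.076 (SE 0.10), the lung form COX4I2 at 0.069 (SE 0.084), and the testis forms COX6B2 and COX7B2 at -0.16 (SE 0.10) and 0.027 (SE 0.083). Groups of arrays overlapped for all 5. COX7B was at 0.031, 0.12 and 0.19 after SDC1 siRNA and at -0.031, -0.033 and -0.077 after control siRNA, apart but short of the threshold (limma adjusted p = 0.0969). COX7B and COX5A did not pass on their bright probe sets (0.16 and 0.12), while dimmer probe sets rose by 1.04 (SE 0.11) and 0.63 (SE 0.077), with adjusted p of 0.000385 and 0.00064 over all probe sets by limma.

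Complex V had 4 genes higher and 1 lower of 18 (27.8%, against 28.2% of all genes and 41.4% of the brightest class). Its median was 0.12 (0.062 and 0.13 within the spike-in sets). None of the 5 genes of the F1 head and central stalk, which makes ATP, passed as summarised, and none had an unadjusted limma p under 0.05. ATP5F1A and ATP5F1B, its alpha and beta subunits, were at 0.085 (95% confidence interval -0.060 to 0.23) and -0.080 (95% confidence interval -0.21 to 0.055). ATP5F1C, the gamma subunit that turns inside the head, was at 0.22 (SE 0.12, limma adjusted p = 0.23) on its probe set of the middle class, and its groups overlapped. Its 3 bright probe sets are of the kind that can cross-hybridise with other transcripts and stay out of the gene value. They read -0.42, -0.36 and -0.52, -0.39, -0.36 and -0.53, and -0.40, -0.35 and -0.58 in SDC1 siRNA replicates 1 to 3, and all controls were between 0.35 and 0.41. These probe sets fell to 56.6%, 57.3% and 56.3% of control (log2 differences of -0.82, -0.80 and -0.83, adjusted p of 0.000125, 0.00016 and 0.000223 over all probe sets by limma). If they are taken as the reading of ATP5F1C, the gene passed as lower, and no other subunit gene value fell as far.

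In the peripheral stalk, which holds the head still, ATP5PB (subunit b) was at 0.28, 0.16 and 0.20 after SDC1 siRNA and at -0.16, -0.21 and -0.26 after control siRNA. It rose by 0.42 (SE 0.062, limma adjusted p = 0.00111), the mean of probe sets at 0.71 and 0.14, of which the second did not pass (adjusted p = 0.192 over all probe sets by limma). The ATP5PB call was lost in the fit that read the brightness class from all 6 arrays. ATP5PF, ATP5PO and ATP5PD were at 0.18, 0.16 and -0.092 and did not pass. In the membrane part ATP5MG (subunit g, which helps pairs of the enzyme to form) was at 0.22, 0.14 and 0.19 against -0.14, -0.30 and -0.21, a rise of 0.40 (SE 0.064, limma adjusted p = 0.00176). Its 3 cross-hybridising probe sets gave 0.046, 0.011 and -0.013, and with them kept the gene was at 0.15 (limma adjusted p = 0.0732).

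The c subunits form the rotor ring and come from 3 genes that encode the same mature protein. ATP5MC2 was at 0.14, 0.18 and 0.046 after SDC1 siRNA and at -0.13, -0.046 and -0.18 after control siRNA. ATP5MC2 rose by 0.24 (SE 0.066, limma adjusted p = 0.0267) and ATP5MC3 by 0.23 (SE 0.064, limma adjusted p = 0.0291), while ATP5MC1 was at 0.053 (95% confidence interval -0.081 to 0.19). Both calls were lost with the spike-in set as a block and in 4 of the 6 fits that leave out an array. ATP5IF1, which blocks the reverse reaction of the enzyme, was at -0.20, -0.21 and -0.10 after SDC1 siRNA and at 0.23, 0.15 and 0.12 after control siRNA. It fell by 0.33 (SE 0.062, limma adjusted p = 0.00402), in all 6 fits that leave out an array.

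**Figure D3:**
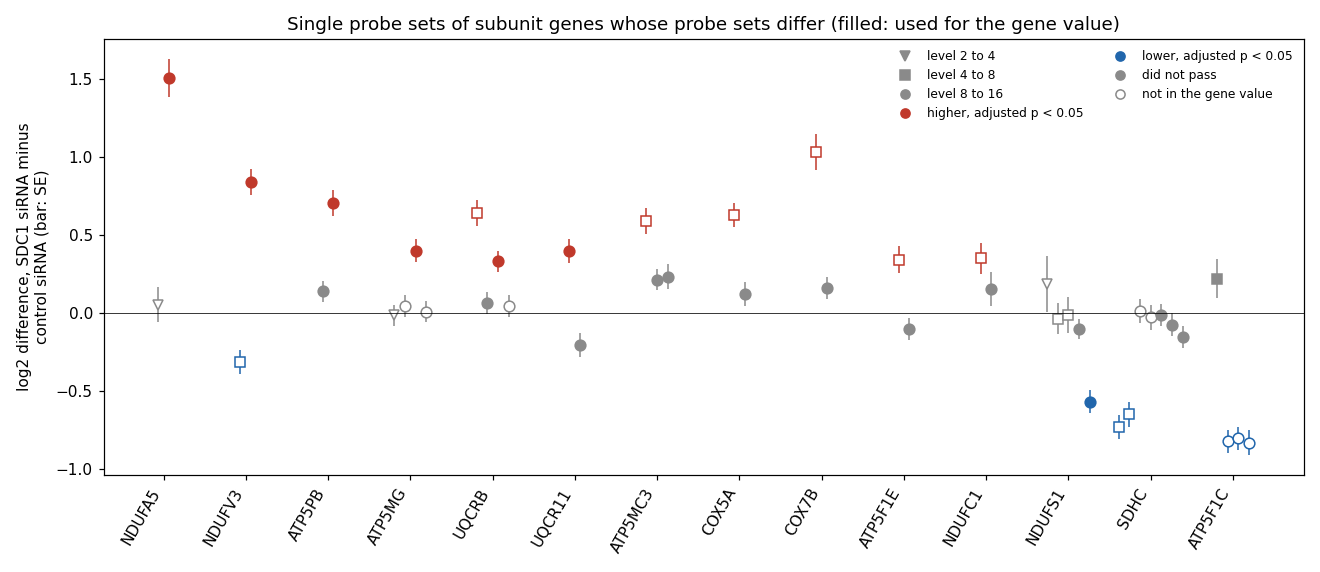
Log2 difference of single probe sets (vertical axis, bars for SE) for 14 genes whose probe sets differ, with the marker shape for the brightness class and open markers for probe sets outside the gene value. Colours mark an adjusted p under 0.05 over all probe sets. The NDUFV3 probe sets lie on both sides of 0, and the 3 bright ATP5F1C probe sets lie near -0.82.

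Of the 150 probe sets of the 76 genes 31 passed (20.7%, 19 higher and 12 lower), against 19.8% of all probe sets. Several probe sets were available for 44 genes. In 6 genes that did not pass (ATP5F1C, ATP5F1E, COX5A, COX7B, NDUFC1 and SDHC) a probe set outside the gene value did. The reading of these 6 genes thus depends on which probe sets are used. How often this occurs among all genes was not counted here. Probe sets passed in opposite directions for NDUFV3, and for NDUFA5 a probe set at 1.51 stood beside one at 0.056.

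Neighbouring genes with a start on the opposite strand within 1000 bases upstream were tested for 22 of the genes. Of these 22 neighbours 3 were higher and 7 lower, where 13% of all genes were higher and 15.1% lower (18.1% and 23.3% in the brightest class). In 1 pair both genes passed. ATP5PB and WDR77, a partner of an arginine methyltransferase, whose starts are 208 bases apart, rose by 0.42 and 0.36 (limma adjusted p = 0.00198 for WDR77). EMC8, a subunit of a membrane protein insertase next to COX4I1, fell by 0.64 (SE 0.063), and the splicing factor gene IK next to NDUFA2 fell by 0.59 (SE 0.063), while COX4I1 (0.092) and NDUFA2 (0.085) did not pass. ASB15, with a start 170 bases from a listed start of NDUFA5, was at 0.14 (limma adjusted p = 0.164).

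Assembly factors build the complexes without staying in them. Of 17 factors for complex I 3 were higher and 6 lower, of 6 for complex III 2 and 2, of 25 for complex IV 3 and 4, of 4 for complex V 2 and 0, and of 4 for complex II none passed by limma (1, SDHAF1, had an unadjusted p under 0.05). The share that passed was 52.9% for complex I, 66.7% of 6 factors for complex III and 28% for complex IV, against 28.2% of all genes and 41.4% of the brightest class. COA1, an early factor of complexes I and IV, was at -0.75, -0.55 and -0.45 after SDC1 siRNA and at 0.73, 0.53 and 0.45 after control siRNA, a fall of 1.15 (SE 0.099, limma adjusted p = 6.96e-05). Other ways of combining its probe sets gave smaller falls, from -0.28 to -0.45. NDUFAF8 rose by 0.46 and FOXRED1 and NDUFAF1 fell by 0.35 and 0.36. LYRM7, a chaperone of the complex III iron-sulfur protein, fell by 0.70 (SE 0.058) and UQCC1 by 0.56 (SE 0.058), and TTC19 and UQCC3 rose by 0.31 and 0.30. COX15 and COX10, which make heme a, fell by 0.57 (SE 0.072) and 0.43 (SE 0.063), COA5 rose by 0.43 and the mitochondrial RNA-binding protein LRPPRC by 0.26. ATPAF1, a chaperone of the F1 beta subunit, and FMC1 rose by 0.32 and 0.27, while TMEM70 (0.15) and ATPAF2 (-0.089) did not pass, nor did SDHAF1 (0.17), SDHAF2 (-0.14), SDHAF3 (0.046) and SDHAF4 (0.21).

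Subunits encoded in mitochondrial DNA were read by probe sets for 7 genes, and none passed limma at an adjusted p under 0.05 or an unadjusted p under 0.05. Their median was -0.018 (-0.077 and 0.15 within the spike-in sets), with the complex IV subunits COX3 at 0.17 (SE 0.11) and COX2 at -0.077 (SE 0.060) and the complex I subunits ND2 at -0.16 (SE 0.11) and ND6 at -0.081 (SE 0.11). Of 10 measured electron carriers and subunits outside the naming rule 3 were lower and none higher (30%, against 28.2% of all genes). SQOR, which feeds electrons from sulfide to ubiquinone, fell by 0.56 (SE 0.069), GPD2, the glycerol phosphate dehydrogenase of the inner membrane, by 0.28 and ETFDH, which feeds them from fatty acid oxidation, by 0.29. CYC1, the cytochrome of complex III, was at 0.16 (limma adjusted p = 0.139).

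Among 19 regulators of respiratory genes 2 were higher and 5 lower (36.8%, between the 28.2% of all genes and the 41.4% of the brightest class). PPARGC1A, a coactivator of mitochondrial gene expression, was at 0.64, 0.36 and 0.42 after SDC1 siRNA and at -0.36, -0.52 and -0.65 after control siRNA, a rise of 0.98 (SE 0.10, limma adjusted p = 0.000169), or 0.51 with all its probe sets averaged. YY1 fell by 0.61 (SE 0.058), CREB1 by 0.57 (SE 0.058) and NFE2L2, the antioxidant response factor, by 0.49 (SE 0.058). NRF1 was at -0.071 (95% confidence interval -0.20 to 0.055), GABPA at 0.11 (95% confidence interval -0.086 to 0.30) and ESRRA at -0.12 (95% confidence interval -0.28 to 0.040), and none of these 3 passed.

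Enzymes of the citric acid cycle and of pyruvate oxidation supply the NADH and succinate. Of 17 measured, 7 were higher and 4 lower (64.7%, against 28.2% of all genes and 41.4% of the brightest class). Their median was 0.17 (0.17 and 0.15 within the spike-in sets). SUCLG1, of succinyl-CoA ligase, was at 0.43, 0.45 and 0.41 against -0.42, -0.41 and -0.50, a rise of 0.87 (SE 0.057, limma adjusted p = 1.8e-05). Citrate synthase CS rose by 0.71 (SE 0.063) and the isocitrate dehydrogenase subunit IDH3A by 0.93 (SE 0.089). PDHX, a structural part of the pyruvate dehydrogenase complex, fell by 0.54 (SE 0.057). By gene value, larger changes were thus read for several of these enzymes than for any subunit gene other than NDUFA5 and NDUFV3. Some probe sets outside the gene values moved further than CS and PDHX, as in ATP5F1C (-0.80 to -0.83) and COX7B (1.04). No test compared these lists with the subunit genes.

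**Figure D4:**
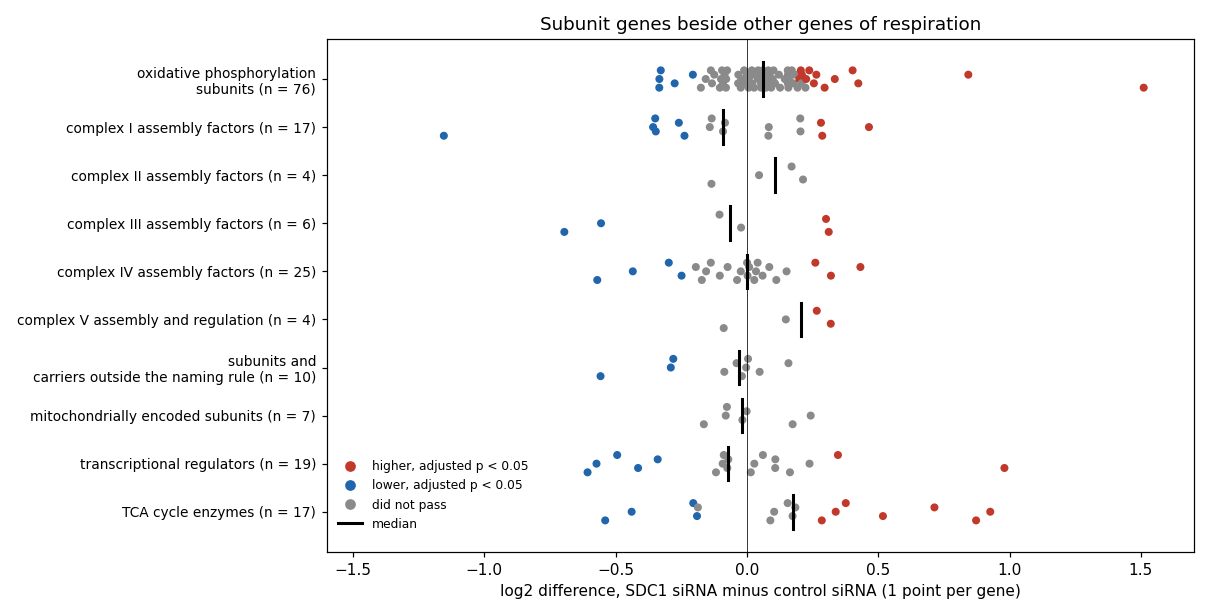
Log2 difference (horizontal axis, 1 point per gene) for the 76 subunit genes and 9 lists of other genes of respiration, with a black line at the median of each list and colours for genes that passed. Most subunit genes lie close to 0, and the assembly factor, regulator and citric acid cycle lists spread to both sides.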

How the data were processed

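Values were log2 expression as deposited by the authors. RMA (robust multi-array average) is named without a version, per the submitters' processing notes, and no other step is given in the sources used here. Row medians lay within 1e-06 of 0. Both the centring and the log base were inferred from the numbers. Depth has no meaning for arrays, and their number limits precision: the median SE was 0.075.

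Probe sets (54675, of which 62 are manufacturer's controls) were named from the platform annotation, and 41091 name 1 gene, 1801 several and 11777 none. Genes were summarised by averaging those single-gene probe sets that shared the highest brightness class found for the gene. Probe sets with the suffix _x_at can cross-hybridise and entered only for genes without another. Some probe sets are placed too high, since 15.7% of those called brightest showed too coarse a step for that level. Groups were compared with limma 3.58.1 in R 4.3.3 (lmFit, eBayes, 2-sided, no covariates), with Benjamini-Hochberg adjustment over 19775 genes, or over all non-control probe sets where said. The script was tested on simulated data. Confidence intervals are at 95% from the same fit.

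The members and lists were chosen with earlier results of these data known. Named in full are SDC1, the 2 to 4 members of lowest p in each complex, tissue-restricted COX isoforms, the c subunit genes and the 4 genes of lowest p in each list. Other genes, among them UQCR11, COX5A and ATP5F1C and the neighbouring genes, were chosen after their values were seen. Keeping cross-hybridising probe sets was an alternative added after seeing the data.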

Additional observations from a re-analysis of the deposited data

How the results depend on the processing

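The subunit genes were refitted in 15 ways, and 7 of the 18 calls (ATP5IF1, COX7A2L, NDUFA11, NDUFA5, NDUFA7, NDUFB8 and NDUFV3) were kept in each. Calls that rest on which probe sets are read were those of NDUFS1, ATP5PB, ATP5MG and UQCRB. A further fit averaged all probe sets of a gene, except cross-hybridising ones where the gene had another. In that fit 1 gene of complex II was lower and 3 of complex IV were higher. With the brightness class from all 6 arrays, 1 gene of complex I was lower, and NDUFS1 and ATP5PB lost their calls. With cross-hybridising probe sets kept, 0 genes of complex III were higher (limma), 2 of complex V were lower and the median of complex V was 0.060. With a robust prior, 1 gene of complex IV was lower. With the spike-in set as a block, 1 gene of complex IV was lower and 2 of complex V were higher, as ATP5MC2, ATP5MC3, COX8C and NDUFB10 lost their calls. Within the spike-in set of high and of low values the median of complex II was -0.060 and -0.010 and that of complex IV 0.084 and -0.058. The median of complex III was 0.114 in the low set and that of complex V 0.062 in the high set.

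Same-numbered arrays had deviations that correlated at 0.0146, 0.0811 and 0.0993, and differently numbered arrays at between -0.117 and 0.040. The highest values were between same-numbered arrays, but all were small. The numbers were not taken to pair the cultures, a question that such weak correlations do not settle. With the replicate number as a block 18 subunit genes passed, UQCRB was lost, NDUFA13 was gained, and 0 genes of complex III were higher.

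Leaving out 1 array at a time gave 6 to 10 higher and 4 to 5 lower subunit genes, with the fewest without SDC1 siRNA replicate 2. The share of all genes that passed also fell in these fits, from 28.2% to between 22.7% and 25.6%, lowest without the same array. Complex I had 4 to 7 higher, complex III 0, complex IV 0 to 1 higher and 1 to 2 lower, and complex V 2 to 4 higher. The median log2 difference of complex II subunit genes ranged from -0.0243 to 0.0173, the median log2 difference of complex III subunit genes from 0.0371 to 0.0903, the median log2 difference of complex IV subunit genes from -0.0107 to 0.0691 and the median log2 difference of complex V subunit genes from 0.0773 to 0.1393. Genes near 0 changed sign: SDHA ranged from -0.0077 to 0.0499, COX7A1 from -0.0499 to 0.1393, COX7B2 from -0.0393 to 0.0784 (-0.0282 without control siRNA replicate 1) and SDHAF3 from -0.0100 to 0.0962. The cause of these changes was not tested. With 3 arrays per group the median SE of a subunit gene was 0.064, against a median size of difference of 0.105.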
